A study of Mus musculus with 18 samples.

Results

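The genes described here are 10 isotypes of actin and tubulin, the proteins that build the cytoskeleton of cortical cells. They comprise the 2 cytoplasmic actins *Actb* and *Actg1*, the 3 α-tubulins *Tuba1a*, *Tuba1b* and *Tuba1c*, and the 5 β-tubulins *Tubb2a*, *Tubb2b*, *Tubb3*, *Tubb5* and *Tubb4b*. They were taken by gene symbol from 55153 genes in the RNA-seq table and from 14348 genes with counts in every library of the Ribo-seq table, and all 10 had counts in all 18 libraries. The genes were chosen by symbol with the measured *M*-cKO change of *Actg1* translation already known, so their *M*-cKO values below are given as a description, without p-values, and where the number of them called in *M*-cKO is given beside the share of all genes called, nothing is read from it. The study asked how loss of an RNA methyltransferase or of an RNA demethylase changes RNA levels and translation in the developing cortex. Cerebral cortices of C57BL/6 mice, as the labels name the strain, were collected at embryonic day 15.5 (E15.5). *F*-cKO cortices were Fto(f/f, Emx1-cre), *M*-cKO cortices were Mettl3(f/f, Emx1-cre), and Ctrl cortices were wild type. Emx1-cre acts in cells that use the *Emx1* promoter, so cells of other origin in the dissected cortex keep both genes, and the study's methods give a mixed C57/BL6 and 129 background for the floxed mice. RNA-seq and Ribo-seq (sequencing of RNA fragments protected by ribosomes, here called footprints) each had 3 libraries per group, which the labels call biological repeats. The sources used here do not tie each library to an animal, so p-values measure the spread between these libraries. The study's methods describe the cortical samples for Ribo-seq as coming from a single source written as "1 L", possibly one litter, so the 3 footprint libraries of a group may be less independent than separate litters would be. In bulk cortex, fewer cells of a type and less RNA per cell cannot be told apart.

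Actin monomers assemble into filaments that shape growth cones and migrating cells, and α- and β-tubulin pair into the subunits of microtubules, which carry cargo along axons and form the mitotic spindle. Newly made actin and tubulin are folded by the chaperonin CCT with its partner prefoldin, and tubulin is then paired by dedicated cofactors. Free tubulin lowers the stability of its own mRNAs while they are being translated, a loop known as autoregulation, and free actin holds back the coactivators of the transcription factor SRF, which drives actin genes. *Tuba1a*, *Tubb2b* and *Tubb3* are well known in young neurons, where mutations cause malformations of the cortex, while *Actb*, *Actg1*, *Tuba1b* and *Tubb5* are used by most cells.

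Several of these genes are close neighbours. On GRCm38, the assembly behind the mm10 build named in the submitters' processing notes, *Tuba1b* (chr15:98931429-98934390), *Tuba1a* (chr15:98949847-98953501) and *Tuba1c* (chr15:99029891-99038105) lie side by side, as do *Tubb2a* (chr13:34074278-34078008) and *Tubb2b* (chr13:34127008-34130354). *Actb* lies at chr5:142903115-142907976 and *Actg1* at chr11:120345687-120348495. Members of a class are closely related genes whose sequences were not compared here, and how short footprints were divided between related copies is not given in the sources used here. Promoter sequences were found for 8 of the 10 genes in RefSeq (GRCm38.p6). The 120 bases upstream of the start are shown for the 3 tubulin genes whose RNA fell in *F*-cKO cortices and for *Actg1*, the gene with the largest footprint difference, each 5′ to 3′ on the gene's own strand, with capitals for matches on either strand to 4 motifs. These were the TATA box in the form TATAAA, the CCAAT motif, the GC box in the form GGGCGG, and the CArG box, the binding motif of SRF.
*Tuba1a* (chr15:98953502-98953621, minus strand): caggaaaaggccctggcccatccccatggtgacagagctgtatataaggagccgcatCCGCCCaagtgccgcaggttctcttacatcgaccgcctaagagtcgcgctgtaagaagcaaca
*Tubb2a* (chr13:34078009-34078128, minus strand): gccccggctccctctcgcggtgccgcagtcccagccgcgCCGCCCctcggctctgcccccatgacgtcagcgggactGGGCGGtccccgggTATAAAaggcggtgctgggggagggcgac
*Tubb3* (chr8:123411433-123411552, plus strand): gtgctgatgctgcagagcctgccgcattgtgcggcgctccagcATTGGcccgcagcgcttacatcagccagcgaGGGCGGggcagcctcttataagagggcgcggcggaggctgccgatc
*Actg1* (chr11:120348496-120348615, minus strand): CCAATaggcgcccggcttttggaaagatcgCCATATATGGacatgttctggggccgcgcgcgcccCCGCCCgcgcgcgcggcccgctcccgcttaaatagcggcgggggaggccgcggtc
Within 250 bases upstream, *Actg1* was the only one of the 8 genes with a CArG box match, a motif found in 1.47% of 32851 promoters, and *Tubb2a* was the only one with TATAAA, found in 12.4%. The promoters of *Actb* and *Tubb2b* were not searched. GC box matches were present upstream of *Tuba1a*, *Tubb2a*, *Tubb3* and *Actg1* and in 32.7% of all promoters. These matches are letters in a window and do not show that a factor binds there.

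RNA libraries held 18504094 to 22592406 counts. Footprint libraries held 30081796 to 35853227 counts in Ctrl, 10973699 to 32954317 in *F*-cKO libraries and 13764136 to 21725348 in *M*-cKO libraries. The footprint library *F*-cKO 2 stood apart, with the lowest depth and correlations of 0.891 with both other *F*-cKO libraries, against 0.964 to 0.992 for the other pairs within a group, and its own values are given where a result rests on it. *Fto* RNA fell in *F*-cKO cortices (log2 fold change -1.21 ± 0.33 SE, adjusted p = 0.0298, edgeR quasi-likelihood test), with 3.26, 7.56 and 2.43 FPKM against 8.37 to 11.2 FPKM in Ctrl. The library labelled *F*-cKO 2 was the closest to Ctrl. *Fto* footprints were 2.11 to 4.04 RPKM in *F*-cKO and 17.6 to 25.9 RPKM in Ctrl. Even this difference was not called in *F*-cKO footprints (log2 fold change -2.67 ± 0.25 SE, adjusted p = 0.350, edgeR). *Mettl3* RNA, counted over the whole gene, was higher in *M*-cKO (7.82 to 8.61 FPKM) than in Ctrl (5.07 to 6.43 FPKM), and its footprints were lower (6.02 to 6.78 against 9.16 to 9.93 RPKM). Because the deletion removes only part of *Mettl3*, the whole-gene RNA count does not check it. Markers of cortical excitatory neurons and of cortical progenitors were all detected, with summed RNA levels of 2544 to 2636 and 1547 to 1745 CPM (counts scaled to library size) in Ctrl, and skeletal muscle markers summed to at most 1.17 CPM in Ctrl.

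In Ctrl cortices, *Tuba1a* had the highest RNA level of the 10 genes, and *Actb* the highest footprint level. *Tuba1a* RNA stood at 3522 ± 272 FPKM (SD, n = 3), above *Tubb2b* (1815 ± 65.4), *Tubb3* (1268 ± 84.5), *Tubb5* (1122 ± 12.9), *Actb* (708 ± 11.3), *Actg1* (598 ± 12.6), *Tubb2a* (376 ± 42.9), *Tuba1b* (301 ± 3.00), *Tubb4b* (78.1 ± 2.75) and *Tuba1c* (52.3 ± 3.65). No neighbours in that RNA order overlapped in their 3 libraries. The footprint order differed. *Actb* led with 3748 ± 468 RPKM, and its libraries overlapped those of *Tubb5* (3167 ± 211), which overlapped *Tubb3* (2991 ± 263), which overlapped *Tubb2b* (2950 ± 493). Below them came *Actg1* (810 ± 180) and *Tubb2a* (537 ± 50.0), each apart from its neighbours. *Tuba1a* (45.3 ± 9.93) and *Tubb4b* (41.9 ± 2.36) overlapped, as did *Tuba1b* (6.99 ± 1.85) and *Tuba1c* (4.69 ± 0.606).

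The ratio of mean footprint RPKM to mean RNA FPKM in Ctrl spread over more than 2 orders of magnitude within the family. *Actb* had a ratio of 5.29, at percentile 98.8 of 11739 genes with at least 1 FPKM, whose median was 0.859. *Tubb5* (2.82), *Tubb3* (2.36), *Tubb2b* (1.63), *Tubb2a* (1.43) and *Actg1* (1.35) were above that median, and *Tubb4b* was below it at 0.537. The α-tubulins stood at the bottom, with 0.0896 for *Tuba1c*, 0.0232 for *Tuba1b* and 0.0129 for *Tuba1a*, the last at percentile 0.0937. Together the 3 α-tubulins took 0.714% ± 0.0453 of RNA fragments but 0.00863% ± 0.00136 of footprints in Ctrl, while the 5 β-tubulins, their partners in the same protein subunit, took 1.12% ± 0.0347 and 1.957% ± 0.205. How the counting treated footprints that fit several copies is not given in the sources used here. The low α-tubulin footprint counts, 236 to 2567 per Ctrl library, carry this limit. It holds as well for every footprint, TE and footprint ratio value of the members below, those of *Actg1* and *Actb* included.

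**Figure D1:**
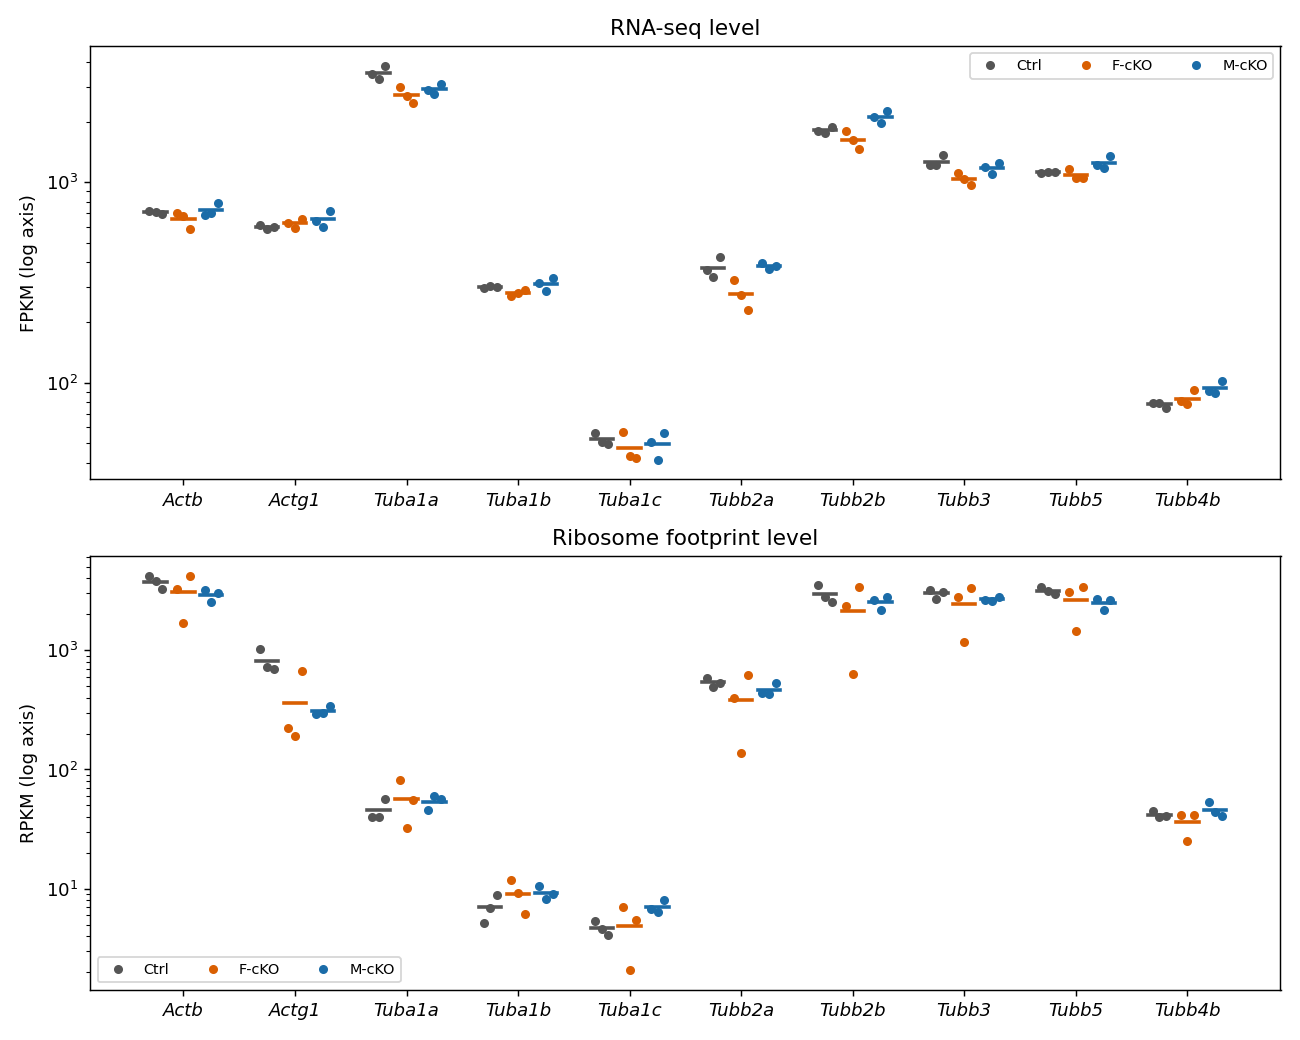
Levels of the 10 genes in each library on log axes, as FPKM for RNA (top) and RPKM for footprints (bottom). Points are libraries, bars are means of 3 libraries, and groups are coloured as Ctrl, *F*-cKO and *M*-cKO. *Tuba1a* leads in RNA but sits near *Tubb4b* in footprints, and *Actg1* footprints are lower in all 3 *M*-cKO libraries (291 to 338 RPKM) than in Ctrl (695 to 1018 RPKM).

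In *F*-cKO cortices, RNA of 3 tubulin genes fell and none of the 10 genes rose. The 3 were the α-tubulin *Tuba1a* and the β-tubulins *Tubb2a* and *Tubb3*. *Tuba1a* measured 2976, 2690 and 2483 FPKM in *F*-cKO and 3463, 3285 and 3818 FPKM in Ctrl. All 3 *F*-cKO libraries were below all 3 Ctrl libraries, and the fold was 0.765 (log2 fold change -0.39 ± 0.08 SE, adjusted p = 0.0129, edgeR). *Tubb2a* measured 325, 273 and 231 FPKM in *F*-cKO and 365, 339 and 423 FPKM in Ctrl, again without overlap (log2 fold change -0.46 ± 0.12 SE, adjusted p = 0.0263, edgeR). *Tubb3*, the β-tubulin used as a neuronal marker, measured 1117, 1034 and 967 FPKM in *F*-cKO and 1215, 1224 and 1366 FPKM in Ctrl, likewise without overlap (log2 fold change -0.30 ± 0.08 SE, adjusted p = 0.0218, edgeR). Of 16944 genes tested, 21.1% were called in this comparison, 11.5% higher and 9.57% lower. Without overlap between the groups after TMM scaling stood 5 of the 10 genes, all lower (these 3, *Actb* and *Tuba1b*), where 41.6% of all genes did not overlap (20.9% higher and 20.7% lower). The median log2 fold change was -0.14 over the 10 genes and -0.01 over all genes.

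The other 7 genes did not pass the test in *F*-cKO RNA. *Tubb2b* (log2 fold change -0.17, 95% interval -0.35 to 0.01), *Tuba1c* (-0.15, -0.40 to 0.09), *Actb* (-0.12, -0.29 to 0.04), *Tuba1b* (-0.11, -0.24 to 0.01), *Tubb5* (-0.05, -0.19 to 0.09), *Actg1* (0.05, -0.09 to 0.19) and *Tubb4b* (0.09, -0.07 to 0.24) had adjusted p-values of 0.159 to 0.603 (edgeR). None of the 3 calls was kept when Ctrl 3 or *F*-cKO 2 was left out, where the log2 fold changes were -0.32 and -0.38 for *Tuba1a*, -0.36 and -0.45 for *Tubb2a*, and -0.24 and -0.29 for *Tubb3*. The *Tubb2a* call was also absent without Ctrl 1 (-0.47, adjusted p = 0.0611, edgeR). With a replicate block, only the *Tuba1a* call was kept. Beside these values, summed markers of cortical excitatory neurons were higher in *F*-cKO (2830 to 2923 CPM) than in Ctrl, with 3 of 7 called higher and none at 0. Progenitor markers were also higher (1758 to 1853 CPM), with 4 of 7 called higher and 1 lower. Summed markers of mural and smooth muscle cells (81.5 to 92.9 against 108 to 128 CPM) and of meninges and fibroblasts (20.0 to 70.7 against 82.5 to 171 CPM) were lower. So were those of endothelium (106 to 117 against 127 to 132 CPM, with 1 of 5 called lower) and of erythroid cells (283 to 354 against 382 to 711 CPM, with 1 of 7 called lower). Markers of striatum and ganglionic eminence overlapped with Ctrl in their sum (394 to 527 against 424 to 430 CPM), with 3 of 7 called higher. The part of these markers in the tubulin values was not tested.

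In *M*-cKO cortices, RNA of *Tuba1a* was lower than in Ctrl and RNA of *Tubb2b* and *Tubb4b* higher. *Tuba1a* was lower in both knockouts, with 2901, 2748 and 3087 FPKM in *M*-cKO (log2 fold change -0.28 ± 0.07 SE), and the 3 libraries did not overlap with Ctrl. *Tubb2b* was higher, with 2105, 1979 and 2267 FPKM against 1810, 1752 and 1883 FPKM in Ctrl (log2 fold change 0.21 ± 0.06 SE). *Tubb4b*, a widely expressed β-tubulin that is also found in cilia, was higher as well, with 90.7, 88.7 and 102 FPKM against 79.7, 79.5 and 74.9 FPKM (0.26 ± 0.07 SE). Neither β-tubulin overlapped with Ctrl. *Tubb3* (-0.11 ± 0.07 SE), *Tubb2a* (0.02 ± 0.08), *Tubb5* (0.15 ± 0.06), *Actb* (0.03 ± 0.06), *Actg1* (0.12 ± 0.07), *Tuba1b* (0.04 ± 0.06) and *Tuba1c* (-0.09 ± 0.10) differed less. At the adjusted threshold of 0.05, 2 of the 10 genes were called higher and 1 lower, where 29.6% of 16968 genes were called (15.5% higher and 14.1% lower). The call of *Tubb2b* was absent without Ctrl 1, Ctrl 2 or *M*-cKO 1 (log2 fold changes of 0.19 to 0.22) and with all libraries in one fit (0.22), and that of *Tuba1a* without *M*-cKO 2 (-0.24). With *Tubb5* counted, 3 genes were higher and 1 was lower without overlap, where 44.9% of all genes did not overlap (22.6% higher and 22.3% lower). Against *F*-cKO directly, *Tubb2a* was higher in *M*-cKO by a log2 difference of 0.46 ± 0.10 SE and *Tubb2b* by 0.37 ± 0.08 SE, and these were the 2 of 10 members called in a comparison that called 27.4% of 16802 genes (13.1% higher and 14.3% lower). Together with *Tubb5* (0.19 ± 0.07 SE) they were higher without overlap, where 43.7% of all genes did not overlap (21.2% higher and 22.5% lower). In *M*-cKO, excitatory neuron markers summed to 3101 to 3257 CPM (5 of 7 called higher, 1 lower), progenitor markers to 1365 to 1537 CPM, below Ctrl although 2 of 7 were called higher and 1 lower, and markers of striatum and ganglionic eminence to 565 to 769 CPM against 424 to 430 CPM in Ctrl, with all 7 called higher. Mural and smooth muscle markers summed to 86.5 to 98.6 CPM, below Ctrl, with 1 of 4 called lower. In the direct comparison with *F*-cKO, 3 of 5 markers of meninges and fibroblasts and 5 of 7 of erythroid cells were called higher. So were 5 of 7 of striatum and ganglionic eminence, with none lower in these lists. Of progenitor markers, 4 of 7 were called lower and 1 higher, and of excitatory neuron markers 2 of 7 higher and 1 lower. The part of these in the tubulin values was not tested.

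*Actg1*, which encodes cytoplasmic γ-actin, had far fewer footprints in *M*-cKO cortices, while its RNA values overlapped with Ctrl. Its footprints measured 1018, 718 and 695 RPKM in Ctrl and 291, 298 and 338 RPKM in *M*-cKO. The groups were well apart, and the fold was 0.384 (log2 fold change -1.38 ± 0.16 SE). *Actg1* RNA was 612, 587 and 597 FPKM in Ctrl and 642, 602 and 723 FPKM in *M*-cKO. Translational efficiency (TE, the footprint change relative to the RNA change) was lower, with a fold of 0.370 (log2 -1.43 ± 0.19 SE). *F*-cKO footprints of *Actg1* measured 222, 191 and 669 RPKM, so that libraries 1 and 2 were well below every Ctrl library and library 3 was just below the lowest. That difference did not pass the test (log2 fold change -1.14 ± 0.49 SE, 95% interval -2.31 to 0.02, adjusted p = 0.730, edgeR), and it was -0.88 without *F*-cKO 2 (adjusted p = 0.875) and -1.86 without *F*-cKO 3 (adjusted p = 0.211). The TE difference in *F*-cKO was -1.22 ± 0.54 SE (adjusted p = 0.530, edgeR), -0.93 without the footprint library *F*-cKO 2, and -2.02 without *F*-cKO 3, where it passed the test (adjusted p = 0.0224). The direct *M*-cKO minus *F*-cKO difference in *Actg1* footprints was -0.21 with a 95% interval of -1.31 to 0.88, and 0.50 without *F*-cKO 3. No member was called in that footprint comparison, in which edgeR called 0% of 14262 genes (1154 at an unadjusted p under 0.05, and with DESeq2 178 higher and 28 lower, none of them a member), and none of the 10 genes was without overlap, against 16.1% of all genes (9.17% higher and 6.91% lower). Both comparisons with Ctrl share the Ctrl libraries.

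*Actb*, which encodes cytoplasmic β-actin, differed less. Its footprints were 4197, 3783 and 3263 RPKM in Ctrl. They were 3287, 1687 and 4201 RPKM in *F*-cKO libraries and 3190, 2533 and 3023 RPKM in *M*-cKO libraries. All 3 *M*-cKO libraries lay below the lowest Ctrl library (log2 fold change -0.35 ± 0.13 SE). *F*-cKO 1 and 3 lay on either side of the middle Ctrl library, *F*-cKO 2 lay far below (-0.27 ± 0.32 SE, adjusted p = 0.773, edgeR), and without *F*-cKO 2 the difference was -0.02.

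*Tuba1c* had the highest footprint log2 fold change of the 10 genes in *M*-cKO, from low counts. It measured 5.32, 4.62 and 4.12 RPKM in Ctrl and 6.74, 6.37 and 7.99 RPKM in *M*-cKO (log2 fold change 0.60 ± 0.15 SE), from 177 to 362 counts per library. *Tuba1b* (0.41 ± 0.21 SE) and *Tuba1a* (0.26 ± 0.18 SE) also had positive values. The β-tubulins *Tubb5* (-0.34 ± 0.11 SE), *Tubb2b* (-0.22 ± 0.14), *Tubb2a* (-0.20 ± 0.12) and *Tubb3* (-0.15 ± 0.10) had negative ones, and *Tubb4b* was at 0.15 ± 0.11. *Tubb5* libraries in *M*-cKO (2666, 2176 and 2645 RPKM) lay below those in Ctrl (3399, 3116 and 2986 RPKM). At the adjusted threshold, 1 of the 10 genes was called lower (*Actg1*) and 1 higher (*Tuba1c*) where 14.6% of 14314 genes were called (7.13% higher and 7.5% lower), and the same 2 were called for TE, where 3.07% of 13208 genes were (1.89% higher and 1.18% lower). Footprints of *Tuba1c* were higher without overlap and those of *Actb*, *Actg1* and *Tubb5* lower, where 39.4% of all genes did not overlap (18.4% higher and 21% lower). The *Tuba1c* footprint call was absent when any 1 of the 6 libraries was left out, and its TE call was kept in 9 of 18 alternatives. Beside these footprint values, summed markers of striatum and ganglionic eminence were higher in *M*-cKO footprints (267 to 475 against 153 to 229 CPM), with 4 of 7 called higher, and those of progenitors were lower (1966 to 2414 against 2747 to 3300 CPM), with 2 of 7 called higher and 1 lower. Mural and smooth muscle markers were lower (52.6 to 60.2 against 61.1 to 78.1 CPM, with none of 4 called), and the 2 skeletal muscle markers with a row were higher (4.59 to 13.7 against 1.99 to 4.50 CPM, with 1 of 2 called higher). Their part in the actin and tubulin values was not tested. TE in *M*-cKO was 0.75 ± 0.18 SE for *Tuba1c*, 0.62 ± 0.21 for *Tuba1a*, 0.45 ± 0.20 for *Tuba1b*, -0.41 ± 0.13 for *Tubb5*, -0.36 ± 0.16 for *Tubb2b*, -0.31 ± 0.14 for *Actb*, -0.15 ± 0.15 for *Tubb2a*, -0.04 ± 0.14 for *Tubb4b* and 0.03 ± 0.13 for *Tubb3*.

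Footprints of the tubulins in *F*-cKO cortices were dominated by the spread between the 3 libraries. *Tubb2b* measured 2339, 636 and 3364 RPKM and *Tubb3* 2806, 1166 and 3327 RPKM, with the second library low each time. In *F*-cKO 2, 9 of the 10 genes had a lower footprint RPKM than in any Ctrl library, the exception being *Tuba1b* at 9.26 RPKM. No member was called in this comparison, in which edgeR called 0% of 14335 genes at the adjusted threshold and 318 genes, none of them a member, had an unadjusted p under 0.05. DESeq2 called 5 genes higher and 1 lower, none of them a member. *Actg1* was the 1 member without overlap, lower in *F*-cKO, where 7.85% of all genes did not overlap (3.66% higher and 4.2% lower). With *F*-cKO 2 left out, the β-tubulin log2 fold changes ran from -0.09 for *Tubb2a* to 0.01 for *Tubb3*. For TE in *F*-cKO, edgeR likewise called 0% of 13225 genes, and 1228 genes, with *Actg1* the 1 member among them, had an unadjusted p under 0.05, while DESeq2 called 5 genes higher and 39 lower, and no member. The same library stood apart in its markers. In *F*-cKO 2, footprints of endothelial markers summed to 260 CPM, against 12.2 and 19.1 CPM in the other two *F*-cKO libraries and 15.6 to 23.1 CPM in Ctrl. Markers of meninges and fibroblasts (315 CPM, against 85.2 to 169 in Ctrl), of microglia (45.6 against 14.2 to 20.4) and of skeletal muscle (10.2 against 1.99 to 4.50) were also high there. Markers of excitatory neurons (1753 against 2639 to 2759 CPM) and of progenitors (2483 against 2747 to 3300 CPM) were low there. The part of these in the actin and tubulin values was not tested.

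**Figure D2:**
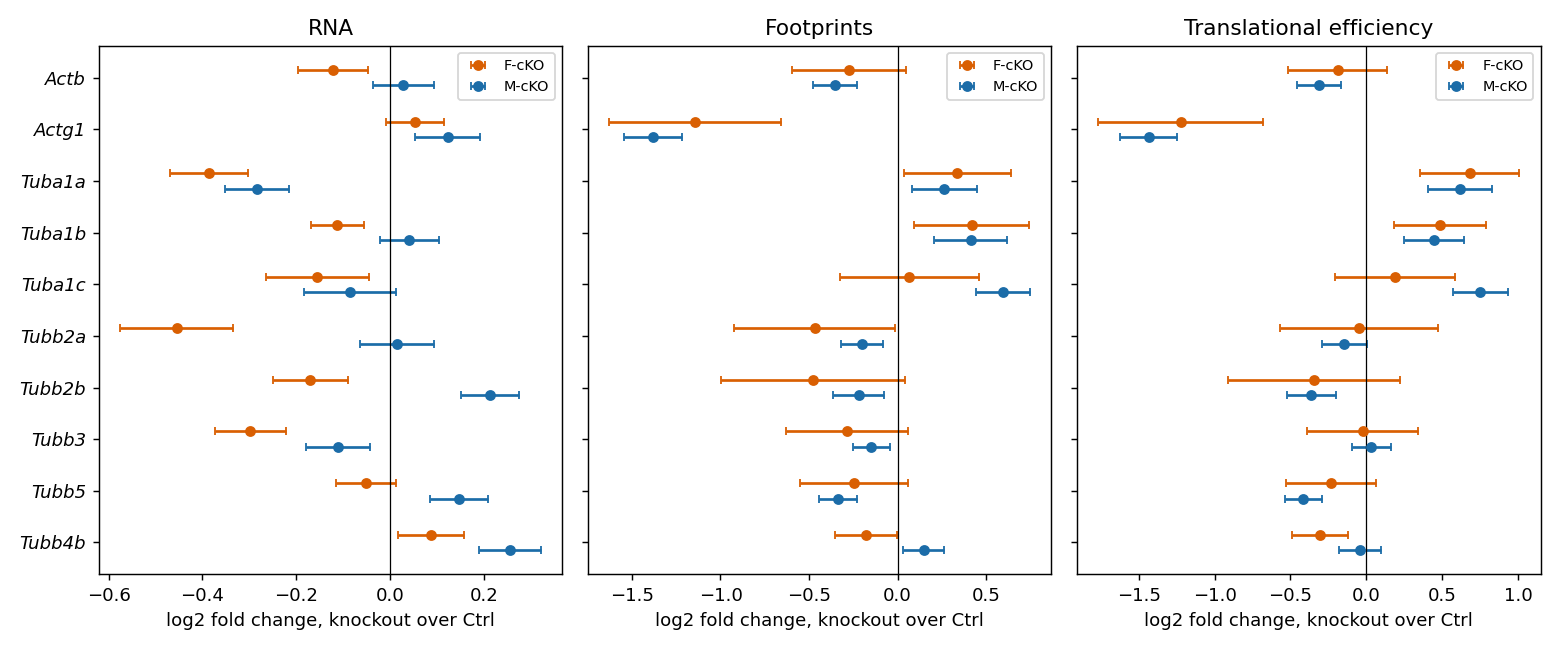
Log2 fold change of each gene in *F*-cKO and *M*-cKO over Ctrl, for RNA (left), footprints (middle) and TE (right), with bars of 1 SE from the edgeR fit. *Actg1* has the lowest footprint and TE values in both knockouts (-1.38 and -1.43 in *M*-cKO), with wide bars in *F*-cKO, while its RNA is near 0.

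Ratios of paired isotypes within a library do not depend on how libraries are scaled. Footprint ratios may still depend on how footprints that fit both copies were counted, which is not given in the sources used here. The *Actg1* to *Actb* ratio of footprint counts was 0.241, 0.188 and 0.211 in Ctrl. It was 0.0671, 0.112 and 0.158 in *F*-cKO libraries and 0.0905, 0.117 and 0.111 in *M*-cKO libraries. Every library of both knockouts was below every Ctrl library. In *F*-cKO the log2 difference was -1.0 (two-sided exact permutation p = 0.1, the smallest that 3 against 3 allows, adjusted p = 0.2 over 8 tests), and in *M*-cKO it was -1.01. The same ratio in RNA was 0.884, 0.862 and 1.12 in *F*-cKO against 0.816 to 0.851 in Ctrl, a log2 difference of 0.18 (exact p = 0.1) that was 0.058 without *F*-cKO 3, and in *M*-cKO the difference was 0.09. The neuronal *Tubb3* relative to the widely used *Tubb5* was lower in RNA, with log2 differences of -0.24 in *F*-cKO (exact p = 0.1) and -0.26 in *M*-cKO. *Tuba1a* relative to *Tuba1b* in RNA differed by -0.27 in *F*-cKO (exact p = 0.2) and -0.32 in *M*-cKO. *Tubb2b* relative to *Tubb2a* in RNA differed by 0.29 in *F*-cKO (exact p = 0.1) and 0.19 in *M*-cKO. In footprints, the 3 tubulin ratios in *F*-cKO differed by -0.11, -0.05 and -0.07 for *Tuba1a* to *Tuba1b*, *Tubb2b* to *Tubb2a* and *Tubb3* to *Tubb5* (exact p = 0.9, 0.6 and 0.6), with overlapping libraries. In *M*-cKO the same footprint ratios differed by -0.17, -0.0076 and 0.19, so that *Tubb3* to *Tubb5* had a positive value in footprints and a negative one in RNA.

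**Figure D3:**
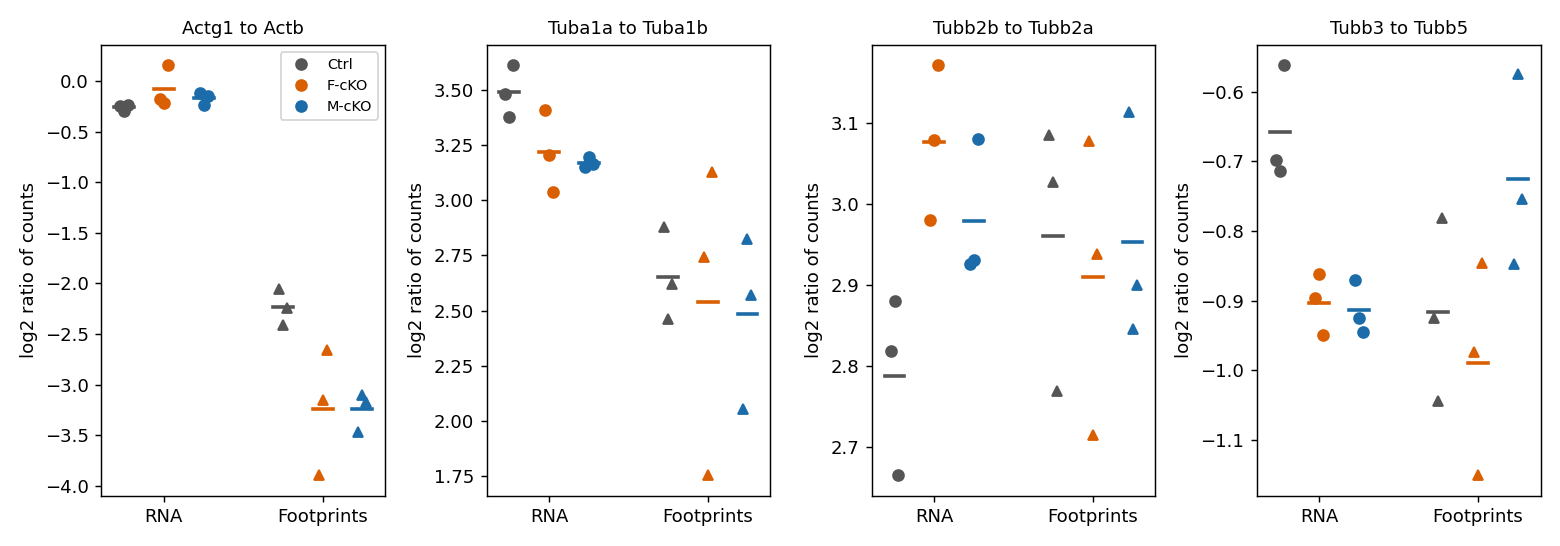
Log2 ratio of counts between paired isotypes in each library, for RNA (circles) and footprints (triangles), with bars at group means of 3 libraries; each panel has its own vertical scale. The *Actg1* to *Actb* footprint ratio is lower in both knockouts, with means of -3.24 in *F*-cKO and -3.25 in *M*-cKO against -2.24 in Ctrl.

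Summed over each class, α-tubulins made up 0.552% ± 0.0348 of RNA fragments in *F*-cKO and 0.599% ± 0.0294 in *M*-cKO, both below Ctrl (0.714%). β-tubulins made up 0.990% ± 0.0633 in *F*-cKO and 1.21% ± 0.0669 in *M*-cKO, on either side of Ctrl (1.12%). The cytoplasmic actins made up 0.341% ± 0.00545 and 0.372% ± 0.0274 of RNA, against 0.354% ± 0.00490 in Ctrl. In footprints, the actins made up 1.00% ± 0.158 in Ctrl and 0.728% ± 0.0568 in *M*-cKO libraries, and the β-tubulins 1.957% ± 0.205 and 1.68% ± 0.149. The 3 *F*-cKO libraries held 0.723%, 0.462% and 1.09% for the actins and 1.66%, 0.803% and 2.19% for the β-tubulins. Library *F*-cKO 2 was the lowest for both classes, and the others lay on either side of the Ctrl mean. These shares, like the footprint CPM of markers above, are of all counted footprints, with noncoding RNA rows included. The paper reports a smaller part of footprints in coding sequence in *M*-cKO than in Ctrl. How far that moved these values was not tested. The α-tubulin footprint shares had higher means in the knockouts, at 0.0107% ± 0.00345 in *F*-cKO and 0.0111% ± 0.00163 in *M*-cKO against 0.00863% ± 0.00136, with overlapping libraries. Sums are not affected by how reads are divided between the members of a class. Reads left uncounted, or given to rows outside the class, would change them, and whether that happened is not given in the sources used here.

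Genes that fold, pair, modify and polymerise actin and tubulin were read from lists drawn up by name, with no test of the lists themselves. The lists were drawn up with earlier results of these data known, and the genes named are among those with the smallest adjusted p in each list, so their values describe those genes and not the list. Counts of called genes are to be read against those over all genes, of which 11.5% were called higher and 9.57% lower in *F*-cKO RNA, 15.5% and 14.1% in *M*-cKO RNA, and 7.13% and 7.5% in *M*-cKO footprints. The first list holds the machinery that folds both proteins. Of 15 genes of the chaperonin CCT and prefoldin, 7 fell and none rose in *M*-cKO RNA, where 14.1% of all genes were called lower, and the median log2 fold change was -0.18, against -0.01 over all genes. *Cct4*, a CCT subunit, changed by -0.37 ± 0.06 SE (adjusted p = 0.000842, edgeR) and *Vbp1*, a prefoldin subunit, by -0.35 ± 0.07 SE (adjusted p = 0.00391). In *M*-cKO footprints 4 of the 15 fell and none rose, where 7.5% of all genes were called lower, with *Cct4* at -0.72 ± 0.10 SE (adjusted p = 0.00923) and *Cct8* at -0.52 ± 0.10 SE (adjusted p = 0.0190). The RNA count was 3 without Ctrl 3, *M*-cKO 1 or *M*-cKO 2, and the footprint count was 1 without Ctrl 1, Ctrl 3 or *M*-cKO 1 and 0 without Ctrl 2. In *F*-cKO RNA, where 9.57% of all genes were called lower and 11.5% higher, 3 of the 15 fell and the list's median was 0.07. Those that fell included the prefoldin genes *Pfdn5* (-0.30 ± 0.05 SE, adjusted p = 0.00640) and *Pfdn2* (-0.22 ± 0.06 SE, adjusted p = 0.0285), and the 1 that rose was *Tcp1* (0.19 ± 0.06 SE, adjusted p = 0.0368).

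Tubulin cofactors and regulators of tubulin mRNA changed in both directions. In *M*-cKO RNA 3 of 10 rose and 4 fell, where 15.5% of all genes were called higher and 14.1% lower. *Tbcc*, the cofactor that triggers release of the finished tubulin pair, rose by 0.85 ± 0.08 SE in RNA (adjusted p = 4.42e-05, edgeR) and by 1.22 ± 0.10 SE in footprints (adjusted p = 0.00254), where it was the 1 gene of the list called. *Arl2*, the small GTPase of the cofactor complex, rose in RNA (0.41 ± 0.07 SE, adjusted p = 0.00197), and the cofactors *Tbce* (-0.44 ± 0.10 SE, adjusted p = 0.00894) and *Tbcb* (-0.30 ± 0.07 SE, adjusted p = 0.00791) fell. In *F*-cKO RNA *Tbca* (-0.32 ± 0.06 SE, adjusted p = 0.00617) and *Tbcb* (-0.24 ± 0.06 SE, adjusted p = 0.0178) fell, and *Cnot11*, a deadenylase subunit that acts in tubulin autoregulation, rose (0.37 ± 0.07 SE, adjusted p = 0.00789).

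Enzymes that modify tubulin were called both ways in RNA, with 2 of 16 higher and 2 lower in *F*-cKO and 4 higher and 4 lower in *M*-cKO. Over all genes, 21.1% were called in either direction in *F*-cKO and 29.6% in *M*-cKO, so the *F*-cKO count was near the background. *Vash1*, which removes the last tyrosine of α-tubulin, rose in *F*-cKO (0.51 ± 0.09 SE, adjusted p = 0.00719, edgeR) and in *M*-cKO (0.51 ± 0.09 SE, adjusted p = 0.00180). Its partner *Svbp* fell in *F*-cKO (-0.26 ± 0.08 SE, adjusted p = 0.0392) and rose in *M*-cKO (0.40 ± 0.06 SE, adjusted p = 0.000875). *Atat1*, the α-tubulin acetyltransferase, fell in *M*-cKO RNA (-0.34 ± 0.06 SE, adjusted p = 0.00154) and footprints (-0.48 ± 0.11 SE, adjusted p = 0.0339), where 2 of the 16 fell and none rose. Among 12 genes of the γ-, δ- and ε-tubulins and the ring complex that starts microtubules, 2 rose and 1 fell in *F*-cKO RNA, 1 rose and 1 fell in *M*-cKO RNA, and 2 fell in *M*-cKO footprints. *Tubg2*, a γ-tubulin, fell in RNA of both knockouts (-0.48 ± 0.11 SE and -0.39 ± 0.09 SE).

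Regulators of actin also split. Of 24 genes that bind actin monomers or turn filaments over, 4 rose and 5 fell in *F*-cKO RNA (21.1% of all genes called) and 5 rose and 4 fell in *M*-cKO RNA (29.6% of all genes called). In *M*-cKO footprints 2 rose and 4 fell (14.6% of all genes called). *Tmsb4x*, which encodes the monomer-binding thymosin β4, fell in *M*-cKO RNA (-0.55 ± 0.06 SE, adjusted p = 0.000119, edgeR) and footprints (-0.86 ± 0.13 SE, adjusted p = 0.0122). The related *Tmsb10* fell in *F*-cKO RNA (-0.39 ± 0.10 SE, adjusted p = 0.0205). *Ssh2*, a phosphatase that activates cofilin, rose in *F*-cKO RNA (0.33 ± 0.06 SE), *M*-cKO RNA (0.61 ± 0.08 SE) and *M*-cKO footprints (0.47 ± 0.10 SE), and *Ssh3* fell in RNA of both (-0.99 ± 0.13 SE and -0.77 ± 0.13 SE). Of 30 genes that nucleate or extend filaments, 4 rose and 5 fell in *F*-cKO RNA, 2 rose and 7 fell in *M*-cKO RNA, and 1 rose and 4 fell in *M*-cKO footprints. The total called in *M*-cKO RNA was near the 29.6% of all genes, and that in footprints near the 14.6%. *Nckap1*, a subunit of the WAVE complex, changed by -0.39 ± 0.07 SE in *M*-cKO RNA and by -0.72 ± 0.12 SE in footprints (adjusted p = 0.00129 and 0.0138), while *Enah*, which speeds filament growth, rose in RNA of both knockouts and in *M*-cKO footprints (0.36 ± 0.05, 0.32 ± 0.06 and 0.48 ± 0.09 SE). The *M*-cKO RNA count of falling genes in this list was 1 or 2 without Ctrl 1, Ctrl 3, *M*-cKO 1 or *M*-cKO 2.

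The SRF pathway had 14 genes tested. *Vcl*, which links actin to adhesions, rose in *F*-cKO RNA (0.71 ± 0.15 SE, adjusted p = 0.0104, edgeR), and in *M*-cKO RNA 3 rose and 1 fell, a share close to the 29.6% called over all genes. *Mrtfa*, an SRF coactivator held by actin monomers, rose in *M*-cKO RNA (0.27 ± 0.08 SE, adjusted p = 0.0282, edgeR) and footprints (0.64 ± 0.11 SE, adjusted p = 0.0156). In *M*-cKO footprints 2 of the list rose, with *Myh9* (0.41 ± 0.08 SE) beside *Mrtfa*, and 1 fell, *Tagln2* (-0.44 ± 0.09 SE). Over all genes, 14.6% were called there. Actin crosslinkers had 3 of 14 genes higher in *F*-cKO RNA, among them *Rdx* and *Ezr*, which tie actin to the membrane, and 2 higher and 3 lower in *M*-cKO RNA, where 21.1% and 29.6% of all genes were called. *Sptbn1*, a spectrin, fell in *M*-cKO RNA (-0.25 ± 0.06 SE) and was the 1 gene over all these lists whose TE was called (0.49 ± 0.12 SE, adjusted p = 0.0462, edgeR), a call absent when RNA and footprint libraries of one number were paired, with RLE scaling, without the filter, and when any 1 Ctrl library or *M*-cKO RNA library was left out. Among the other actin and tubulin isotypes, 5 of 12 had enough RNA to be tested. *Tubb4a* fell in RNA of both knockouts (-0.38 ± 0.08 SE in *F*-cKO and -0.28 ± 0.08 SE in *M*-cKO) and in *M*-cKO footprints (-0.39 ± 0.09 SE), where *Actg2*, a smooth muscle γ-actin, rose (0.75 ± 0.21 SE, adjusted p = 0.0496, edgeR). *Actg2* had too little RNA for a TE test in *F*-cKO, and mural and smooth muscle markers were lower in *M*-cKO footprints, as given above. The smooth muscle actin *Acta2* fell in *F*-cKO RNA (-1.53 ± 0.39 SE, adjusted p = 0.0236), beside the lower mural markers given above. No gene of these lists was called in *F*-cKO footprints or TE. The *M*-cKO footprint counts of these lists moved with the libraries. With any 1 Ctrl library left out, no gene was called among the ring complex, the modifying enzymes, the nucleators or the other isotypes, and 1 of the actin monomer regulators was called, lower, whereas 1 tubulin cofactor gene was called higher whichever library was left out. In *F*-cKO RNA, the counts of the actin monomer list were 1 higher and 1 lower without Ctrl 3, and no ring complex gene was called without Ctrl 3 or *F*-cKO 2.

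**Figure D4:**
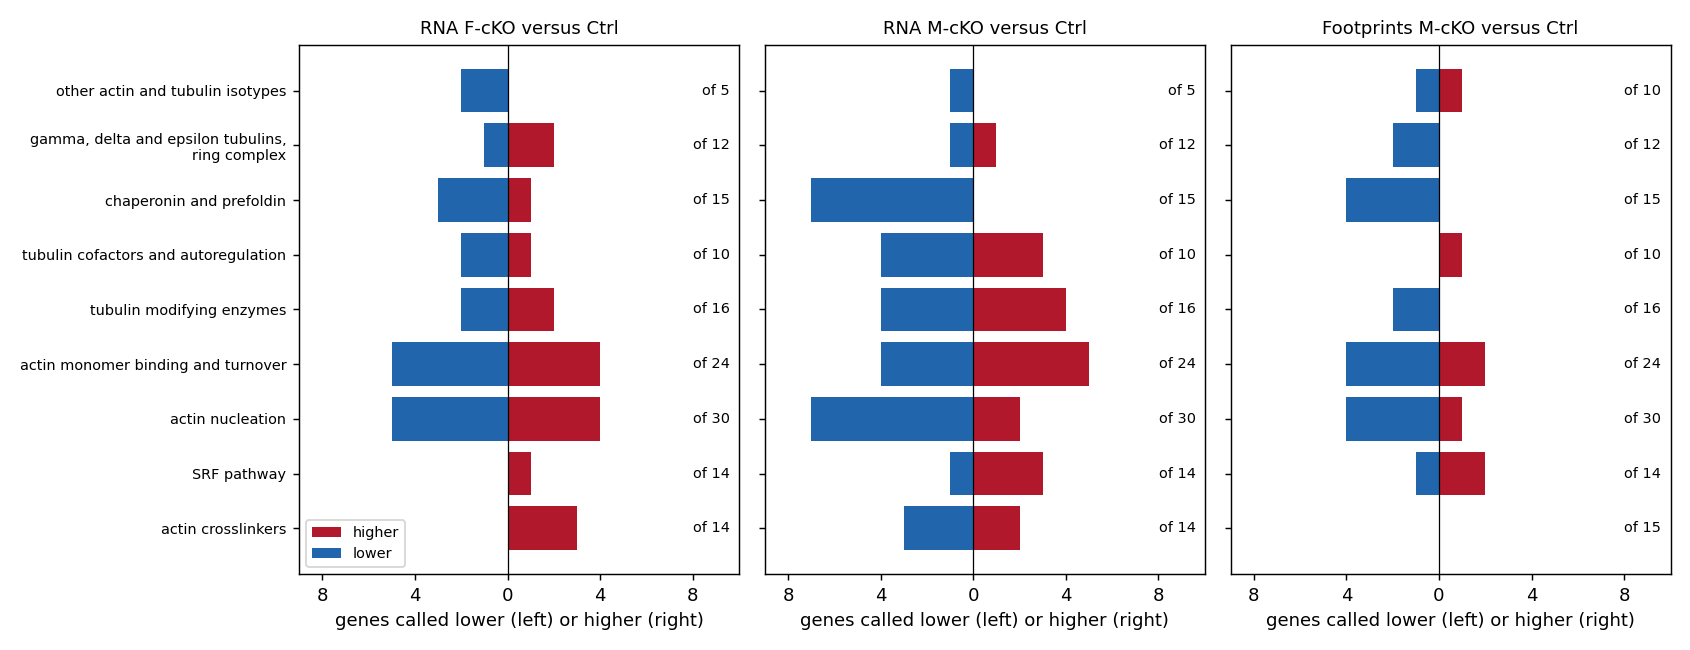
Number of genes of each list called lower (left, blue) or higher (right, red) at an adjusted p under 0.05, with the number tested at the right of each row. Chaperonin and prefoldin genes are called lower and none higher in *M*-cKO RNA (7 of 15) and *M*-cKO footprints (4 of 15), while in *F*-cKO RNA 3 are lower and 1 is higher. Over all genes, 14.1% were called lower in *M*-cKO RNA, 7.5% in *M*-cKO footprints and 9.57% in *F*-cKO RNA. Both *M*-cKO counts of this list were smaller with some libraries left out.

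The footprint count of the actin pseudogene *Actg-ps1* was 358, 200 and 212 in Ctrl. It was 195, 41 and 255 in *F*-cKO libraries and 131, 93 and 169 in *M*-cKO libraries. These counts are not scaled to depth, which was lower in every *M*-cKO footprint library than in Ctrl and lowest in *F*-cKO 2. *Actg1* itself had 5106 to 80482 counts per library, and the part of pseudogene rows in its values was not tested. The genes whose RNA levels followed the mean log2 CPM of the 10 members most closely over the 9 RNA libraries were *Nxph3* (Pearson r = 0.984), *Lztr1*, *Gstm1*, *Mkrn1* and *H2-DMa*, the last at 0.968, out of 17177 genes. In footprints they were *Cpeb3* (r = 0.989), *Rhov*, *Ripor1*, *Nans* and *Stambp*, the last at 0.984, out of 14119 genes. These correlations are over 9 libraries that fall into 3 groups, and in footprints the library *F*-cKO 2 lies far from the rest.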

How the data were processed

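Gene-level counts, FPKM (RNA-seq) and RPKM (Ribo-seq) values were used as deposited by the authors. Per the study's methods and the submitters' processing notes, RNA-seq reads were aligned with HISAT2 2.0.5 and footprints with TopHat2, counted with HTSeq, and tested with DESeq2 1.14.1, on build mm10. The annotation, strand setting and treatment of multiply mapping reads are not given in the sources used here. The deposited counts are whole numbers per gene and library, and the FPKM and RPKM values were scaled by the authors to gene length and library size. Groups follow the genotype labels. Levels were read from FPKM and RPKM. Changes were tested on the counts with edgeR 4.0.16 in R 4.3.3 (filterByExpr with a minimum count of 10, TMM scaling, glmQLFit and glmQLFTest, Benjamini-Hochberg over all genes) between 6 libraries, and TE as the assay by genotype interaction over 12 libraries. A gene is called at an adjusted p under 0.05. The standard error is the log2 fold change divided by the root of its F value, and 95% intervals use the t distribution with the degrees of freedom of the fit. Ratios used exact two-sided permutation tests. Non-overlap was read on TMM-scaled CPM. Precision from counting is high for all members except *Tuba1b* and *Tuba1c* footprints (48 to 417 counts per library), and intervals do not cover duplicated PCR reads. In the Ribo-seq table, 40490 genes were blank in 8 libraries and were left out of the tests. Library totals, and so CPM and shares, kept any counts of these rows. In the pseudogene rows of this kind, only *F*-cKO 1 held values. RefSeq promoters were searched on both strands.

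The members and lists were chosen with earlier results of these data known. Named genes were the 10 members, the 2 targeted genes, for each list and comparison up to 2 called genes per direction with the smallest adjusted p, and for each assay the 5 genes closest to the members' mean. Of those, the text describes a selection, and of the pseudogene rows the largest actin row. Alternatives were DESeq2, RLE scaling, no filter, all libraries in one fit, a replicate block, and leaving out each library. The TE block within genotype and the leave-out counts for lists were added after the data had been seen. RNA and footprint libraries of one number deviated together in Ctrl and *M*-cKO (correlations of 0.10 to 0.33 over genes, 6 of 6 pairs) but not in *F*-cKO (-0.28 to -0.02). The scripts were tested on simulated data.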

Additional observations from a re-analysis of the deposited data

Results flagged for a closer look

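RNA of *Tubb2a* and *Tubb2b*, the neighbouring β-tubulin genes, differed between the knockouts in the direct comparison. The log2 difference, *M*-cKO minus *F*-cKO, was 0.46 for *Tubb2a* and 0.37 for *Tubb2b*, with every *M*-cKO library above every *F*-cKO library for both genes. Markers of several cell types differed in the same comparison, as given above, and their part in these values was not tested. The members had been listed with *M*-cKO results known, so no p-value is given.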

How the results depend on the processing

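Counts of the 10 genes called changed with the setting as follows, and the cause was not tested. In *F*-cKO RNA (3 called), the count was 1 with a replicate block and 0 to 5 with 1 library left out. In *M*-cKO RNA (3), it was 2 with all libraries in one fit and 2 to 3 with 1 library left out. In *M*-cKO against *F*-cKO RNA (2), it was 4 with DESeq2 and 2 to 4 with 1 library left out. In *M*-cKO footprints (2), it was 4 with DESeq2, 0 with all libraries in one fit, 1 with a replicate block and 1 with any library left out. In *M*-cKO TE (2), it was 4 with DESeq2, 1 without a filter, 0 with all libraries in one fit and 1 to 3 with 1 library left out, and in *F*-cKO TE (0) it was 0 to 1.

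Several *F*-cKO log2 differences that did not pass the test changed sign. *Tuba1c* footprints (0.07) were -0.044 with a replicate block. With 1 library left out, footprint values ran from -0.24 to 0.39 for *Tuba1c*, -0.54 to 0.013 for *Tubb3* (-0.28 with all) and -0.41 to 0.0037 for *Tubb5* (-0.25). TE values ran from -0.48 to 0.10 for *Actb* (-0.19 with all), -0.095 to 0.54 for *Tuba1c* (0.19), -0.57 to 0.37 for *Tubb2a* (-0.05), -0.83 to 0.10 for *Tubb2b* (-0.35), -0.30 to 0.32 for *Tubb3* (-0.02) and -0.43 to 0.059 for *Tubb5* (-0.23), and *Tubb3* TE was 2.78e-05 with all libraries in one fit. Footprint ratios ran from -0.41 to 0.28 for *Tuba1a* to *Tuba1b*, -0.15 to 0.047 for *Tubb2b* to *Tubb2a* and -0.15 to 0.0069 for *Tubb3* to *Tubb5*.

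Same-numbered libraries of different groups did not deviate together (correlations of -0.14 to 0.16 in RNA and -0.28 to 0.16 in footprints), so those replicate numbers were not taken as pairs. With RNA and footprint libraries of one number as a block within genotype, *M*-cKO TE was -1.41 for *Actg1* and 0.76 for *Tuba1c*, the count was again 2, and 283 genes were called higher and 173 lower over all genes (249 and 156 without the block). In *F*-cKO TE no gene was called either way. Over all genes, the *M*-cKO footprint calls (1020 higher and 1073 lower) were 1617 and 1512 with DESeq2, 29 and 6 with all libraries in one fit, 681 and 638 with a replicate block and 115 to 1303 higher and 62 to 1244 lower with 1 library left out. The *F*-cKO RNA calls (1955 and 1621) were 1275 and 855 with a replicate block and as few as 984 and 559 with 1 library left out. Depth limits the *Tuba1b* and *Tuba1c* footprints most.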
